A study of Mus musculus with 32 samples.

Results

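Regorafenib at 5 mg/kg/day was compared with vehicle in 20 of the 32 bulk RNA libraries of the series, namely every library that the labels give as vehicle (n = 11) or as regorafenib at that dose, here the low dose, without a further agent (n = 9). All were tumours of BNL-MEA cells, a mouse hepatocellular carcinoma line implanted in the liver of Balb/c mice and sampled after a short course of treatment. The labels give 3 batches, p112, p103 and p101, each an experiment with vehicle tumours of its own. The experiment p112 comprised 4 vehicle and 3 regorafenib tumours and is called the dose experiment here, since its other mice received 20 mg/kg/day. The experiment p103 likewise comprised 4 vehicle and 3 regorafenib tumours and is called the DC-101 experiment after the antibody against mouse VEGFR2 given to its other mice. The experiment p101 comprised 3 tumours each of vehicle, regorafenib, anti-PD1 and regorafenib with anti-PD1 and is called the anti-PD1 experiment. The question was which genes and functions moved in the same direction in all 3 experiments. Each experiment repeats the contrast with control libraries of its own. The labels do not say that each library came from a separate mouse, so the p-values measure the spread between these libraries.

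Regorafenib, taken by mouth, inhibits many kinases, including the VEGF receptors, TIE2, the PDGF and FGF receptors, KIT, RET and CSF1R. Endothelial cells of a growing tumour depend on VEGF signalling for survival and for the sprouting led by tip cells. Junctions between these cells seal the vessel wall, while pericytes and a shared basement membrane stabilize the vessel. Macrophages of a tumour depend on CSF1R and respond to interferons and to bacterial or damage signals through NF-kB, and they recruit further monocytes with CC chemokines.

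The 20 libraries held 16.8 to 27.7 M counts each and had a count in 21979 to 24321 genes. Vim, a mesenchymal intermediate filament, was at 4670 to 7640 CPM (counts scaled per 1 M counts of the library) in vehicle tumours, while Afp, the fetal liver protein, was at no more than 1.43 CPM in any of the 20 libraries. Hepatocyte genes varied most. Alb (albumin) was between 10.5 and 6140 CPM in vehicle and between 395 and 11300 CPM in low dose tumours. Averaged over 39 hepatocyte genes, log2 CPM was 3.09 to 6.25 in vehicle and 4.56 to 8.36 in low dose tumours of the dose experiment. It was -0.99 to 4.97 against 4.14 to 7.40 in the DC-101 experiment. In the anti-PD1 experiment it was 6.15 to 6.52 against 2.97 to 6.01. Hepatocyte RNA was thus on balance higher with the drug in the first 2 of these and lower in the third.

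In the model over 3 experiments (edgeR quasi-likelihood test with the experiment as a term, Benjamini-Hochberg adjustment), 262 of 17238 tested genes (1.52%) passed an adjusted p of 0.05. Of these, 98 (0.569%) rose and 164 (0.951%) fell. At an unadjusted p under 0.05 there were 1383 higher (8.02%) and 1300 lower genes (7.54%), and DESeq2 called 529 higher (3.07%) and 532 lower (3.09%), so the excess of falls was not seen with that tool. Of the 262 genes, 260 moved in the same direction in each experiment, against 34.6% of all tested genes. In 82 of them, 21 higher and 61 lower, the low dose and vehicle libraries did not overlap in any experiment. Over all tested genes this held for 89 (0.516%), these 82 included. Both counts were read in the libraries that made the calls, so they are no independent support for them. The falls were larger than the rises. At least 1 unit of log2 change was reached by 106 of the 164 genes that fell and by 35 of the 98 that rose. The 2 called genes without a common direction were Mup16, a liver secretory protein of a family of near-identical copies, and Chordc1, an HSP90 co-chaperone, both named here after their values were seen and lost from the calls in 13 and 16 of the 20 fits that left out 1 library. Mup16 was at 0 CPM in the median vehicle library and at no more than 0.449 CPM in any, against 0.0751 to 33.1 CPM with the drug. The log2 change of Chordc1 was -0.03 in the dose experiment, 0.83 with p103 and 1.39 with p101, the order of all such triples below.

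Endothelial surface genes were the list with the most called genes. Of 43 tested endothelial junction and surface genes, 20 fell and none rose by edgeR (background 0.951% and 0.569%), 33 were lower in all 3 experiments (background 17.2%) and the median log2 change was -0.95, against 0.02 over all tested genes. At an unadjusted p under 0.05, 29 were lower and 1 higher, and DESeq2 called 24 lower and 1 higher. The median was -0.72, -1.01 and -1.05 in the 3 experiments. When a single library was left out, 17 to 20 members of the list were called lower. With the hepatocyte level of each library as a covariate 19 were. With only 2 experiments in the fit the number fell to 5 without the dose experiment and to 3 without the DC-101 experiment, and it was 17 without the anti-PD1 experiment.

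Esam, an adhesion molecule of endothelial tight junctions, was at 18.3, 24.2 and 41.3 CPM in the lowest, median and highest vehicle library and at 6.98, 9.72 and 12.2 CPM in the low dose libraries. Every low dose library was thus below every vehicle library, whichever experiment it came from. Esam fell by 1.39 ± 0.16 (SE) on the log2 scale (edgeR, adjusted p = 0.000108), with changes of -1.22, -1.52 and -1.44. Cdh5, the VE-cadherin of endothelial adherens junctions, was at 51.6, 87.9 and 159 CPM in vehicle and 11.8, 35.4 and 47.4 CPM in low dose libraries. It also showed no overlap between the groups, and fell by 1.25 ± 0.20 (edgeR, adjusted p = 0.00243). Pecam1, the endothelial marker CD31, was at 35.2, 67.0 and 149 CPM against 18.5, 32.8 and 37.7 CPM. The highest treated library was just above the lowest vehicle library, and it fell by 1.18 ± 0.20 (edgeR, adjusted p = 0.00344).

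Adgrf5, an adhesion receptor of microvascular endothelium, fell by 1.45 ± 0.20 (edgeR, adjusted p = 0.000702) from a median of 44.5 to 16.7 CPM. Icam2, a leukocyte adhesion ligand that endothelium carries at rest, fell by 1.35 ± 0.20 (edgeR, adjusted p = 0.0012) from a median of 8.05 to 3.33 CPM. Myct1, a membrane protein of endothelial cells, fell by 1.22 ± 0.19 (edgeR, adjusted p = 0.0019) from a median of 7.15 to 2.91 CPM. All 3 genes were separated in each experiment. In bulk tissue, fewer endothelial cells and less RNA of these genes per cell cannot be told apart.

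ETS factors are known to drive much of the endothelial programme. The 250 bases before the start of transcription were searched on both strands for CNGGAAG, a loose form of the ETS core with any base at N. This motif was in 15 of 23 tested endothelial junction and surface genes with a promoter sequence (65.2%). Over all genes with a promoter sequence, tested or not, it was in 7882 of 27025 (29.2%). The motif was chosen with the changes known, and a match is no evidence of binding. The median log2 change of the 15 genes was -1.14, beside -0.95 for the 43 tested genes of the list. Of the 15, 2 genes, Abcg2 and Cd34, had changes above 0 (0.26 and 0.55). Stretches of 3 promoters of genes that fell are shown because they hold this motif, with the matching bases in capitals, 5′ to 3′ along the gene (RefSeq, GRCm38.p6). They lie at chr17:43360334-43360430 on the plus strand for Adgrf5, chr10:5593583-5593669 on the plus strand for Myct1 and chr5:147726038-147726124 on the minus strand for Flt1.
Adgrf5: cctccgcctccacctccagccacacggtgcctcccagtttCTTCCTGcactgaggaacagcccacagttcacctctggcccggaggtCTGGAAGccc
Myct1: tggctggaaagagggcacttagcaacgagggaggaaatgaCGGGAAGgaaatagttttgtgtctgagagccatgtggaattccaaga
Flt1: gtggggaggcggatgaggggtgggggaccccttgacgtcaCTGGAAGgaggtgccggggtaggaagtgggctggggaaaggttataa
Adgrf5 holds the motif once on each strand, the first as its reverse complement.

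Among 25 endothelial transcription factors, 3 fell and 1 rose by edgeR (background 0.951% and 0.569%), while DESeq2 called 7 lower and 1 higher. Sox17, a factor of arterial endothelium, was at 2.26, 3.25 and 5.34 CPM in vehicle and at 0.466, 0.96 and 1.22 CPM in low dose libraries. The groups did not overlap, and Sox17 fell by 1.75 ± 0.19 (edgeR, adjusted p = 9.72e-05). Erg, itself an ETS factor, fell by 1.43 ± 0.24 (edgeR, adjusted p = 0.00385) from a median of 7.91 to 3.1 CPM. Bcl6b, a repressor of the same cells, fell by 1.15 ± 0.19 (edgeR, adjusted p = 0.00287). Lmo2, an adapter protein of endothelial and blood cells, went the other way, at 12.8, 20.4 and 27.5 CPM against 18.2, 32.7 and 41.0 CPM. It rose by 0.58 ± 0.13 (edgeR, adjusted p = 0.028), a call that ended when any of 6 of the 20 libraries was left out.

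**Figure D1:**
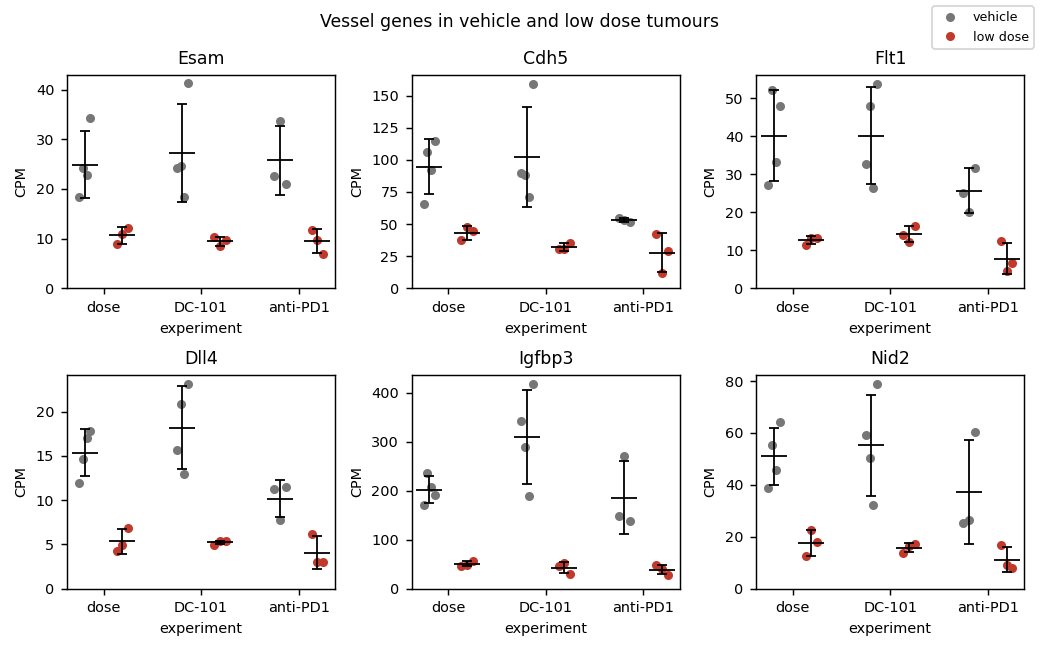
CPM of Esam, Cdh5, Flt1, Dll4, Igfbp3 and Nid2 in each of the 20 libraries, by experiment and treatment; points are libraries and bars give the mean ± SD. The low dose points of every gene lie below the vehicle points of the same experiment, for example 6.98 to 12.2 CPM against 18.3 to 41.3 CPM for Esam.

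The kinases that regorafenib inhibits were read in their own RNA. Of 18 tested target kinases, 2 fell by edgeR (background 0.951%) and 3 were called lower by DESeq2, 8 were lower in all 3 experiments (background 17.2%) and the median log2 change was -0.24. Flt1 (VEGFR1; chromosome 5, 147561604 to 147726011, minus strand) was at 20.1, 32.7 and 53.8 CPM in vehicle and at 4.42, 12.5 and 16.4 CPM in low dose libraries, with no overlap. It fell by 1.62 ± 0.19 (edgeR, adjusted p = 0.000104), and by nearly the same amount in each experiment (-1.66, -1.50 and -1.71). Kdr (VEGFR2), the main signalling receptor of VEGF, was at 17.3, 30.2 and 60.1 CPM against 10.4, 28.7 and 39.9 CPM. Its groups overlapped in each experiment, and its log2 change of -0.47 ± 0.16 did not pass the test (edgeR, adjusted p = 0.148). Kit, the stem cell factor receptor, fell by 1.10 ± 0.25 (edgeR, adjusted p = 0.0318), but 9 of the 20 single-library omissions ended the call. Tek (TIE2) had a log2 change of -0.46 (adjusted p = 0.43 by edgeR), Pdgfra of -0.63 (0.136), Pdgfrb of -0.40 (0.547), Flt4 of -1.12 (0.146) and Csf1r of 0.30 (0.46). The intracellular kinase Braf had a change of -0.16 (edgeR, adjusted p = 0.758). Among 16 VEGF, PDGF and angiopoietin ligands, Angpt2 was the only one called by edgeR (background 0.951% lower). DESeq2 called 1 of the 16 lower (background 3.09%). Angpt2, the TIE2 antagonist that tip cells secrete, was at 11.2, 15.2 and 32 CPM against 5.84, 8.6 and 10.9 CPM, without overlap, and fell by 1.09 ± 0.18 (edgeR, adjusted p = 0.00244).

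Of 27 genes of endothelial tip cells and sprouting, 6 fell by edgeR (background 0.951%) and 7 were called lower by DESeq2, with a median log2 change of -0.30. None was called higher by either or higher at an unadjusted p under 0.05. Igfbp3, a secreted carrier of insulin-like growth factors, had the smallest p-value of all tested genes. It was at 137, 208 and 417 CPM in vehicle and at 28.5, 46.4 and 56.7 CPM in low dose libraries, so that the highest treated tumour was well below the lowest vehicle tumour. It fell by 2.37 ± 0.19 (edgeR, adjusted p = 2.13e-06), with changes of -2.0, -2.87 and -2.26. Dll4, the Notch ligand of tip cells, was at 7.78, 14.6 and 23.1 CPM against 2.97, 4.97 and 6.86 CPM. It too was separated over all libraries and fell by 1.56 ± 0.17 (edgeR, adjusted p = 9.72e-05). Trp53i11 fell by 1.90 ± 0.24 (adjusted p = 0.000229), Kcne3, a potassium channel subunit, by 1.92 ± 0.26 (adjusted p = 0.000497) and Mcam, the adhesion molecule CD146, by 1.29 ± 0.16 (adjusted p = 0.000229), all by edgeR. The Notch pathway around Dll4 had no called member among 15. The smallest p-value there was that of its target Hes1, with a log2 change of -0.72 ± 0.21 (edgeR, adjusted p = 0.0913). At an unadjusted p under 0.05, 3 of the 15 genes were lower (background 7.54%), with 1 called lower by DESeq2 (background 3.09%).

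In the vessel wall outside the endothelial surface, fewer genes passed. Of 20 vascular basement membrane genes, 3 fell by edgeR (background 0.951%) and 12 were lower in all 3 experiments (background 17.2%), with a median of -0.26. DESeq2 called 6 lower and 1 higher. Nid2, a nidogen that links laminin to collagen IV, was at 25.1, 50.2 and 78.8 CPM against 7.77, 16.3 and 22.6 CPM. The groups did not overlap, and Nid2 fell by 1.69 ± 0.21 (edgeR, adjusted p = 0.000178). Lama4, the laminin chain of endothelial basement membrane, fell by 1.41 ± 0.25 (edgeR, adjusted p = 0.00565). Col4a1, its collagen, fell by 1.27 ± 0.31 (edgeR, adjusted p = 0.0437), a call that 15 of the 20 single-library omissions ended. Of 23 pericyte and smooth muscle genes only Kcnj8, a potassium channel of mural cells, was called lower by edgeR (background 0.951%), with 3 lower by DESeq2 (background 3.09%). The edgeR count was 2 without vehicle 3 or low dose 3 of the DC-101 experiment. Kcnj8 was at 9.28, 15.4 and 27.0 CPM against 1.64, 4.0 and 9.29 CPM, with the highest treated library at the level of the lowest vehicle library, and fell by 1.78 ± 0.30 (edgeR, adjusted p = 0.00337). The pericyte marker Rgs5 overlapped fully, with a median of 32.8 CPM against 23.1 CPM. Ednrb, an endothelin receptor of vessels and mural cells, was the only edgeR call among 20 vasoactive peptides and receptors (background 0.951% lower), with 4 lower by DESeq2 (background 3.09%), and fell by 2.23 ± 0.44 (edgeR, adjusted p = 0.0118), with changes of -1.61, -1.59 and -3.85. In the anti-PD1 experiment its vehicle libraries were at 19.4, 19 and 107 CPM, and without the third of these the change over 3 experiments was -1.84. The edgeR count of vasoactive genes was 2 without low dose 3 of the DC-101 or of the anti-PD1 experiment. Of 26 matrix proteases and inhibitors, 2 fell by edgeR (background 0.951%) and 4 were called lower by DESeq2 (background 3.09%). Adamts4 fell by 0.82 ± 0.17 (edgeR, adjusted p = 0.0198) and Adamts12 by 0.92 ± 0.22 (edgeR, adjusted p = 0.0416), the latter lost in 12 of the 20 omissions. Robo1, a guidance receptor, was the only edgeR call in the list of semaphorins, plexins, netrins, slits and ephrins (34 tested, background 0.951% lower). The median of that list was 0.01, and DESeq2 called 1 higher and 2 lower. Robo1 fell by 1.34 ± 0.30 (edgeR, adjusted p = 0.0314), lost in 7 of the 20 omissions.

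Red blood cell genes were measured beside the vessel genes. Their mean log2 CPM was 2.30 to 5.24 in vehicle and 0.90 to 3.51 in low dose tumours. Of 10 tested genes none was called by edgeR, 6 were lower at an unadjusted p under 0.05 (background 7.54%), DESeq2 called 5 lower (background 3.09%), and 8 were lower in all 3 experiments (background 17.2%), with a median of -2.04. The globin gene Hbb-bs was at 58.5, 129 and 1540 CPM against 10.8, 32.4 and 124 CPM. The part of blood content in the results on vessel genes was not tested.

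Of the 262 called genes, 195 were in no list. Among the 15 protein coding genes named by p-value, Fabp4, a fatty acid binding protein of capillary endothelium and fat cells, was at 30.9, 51.5 and 162 CPM against 7.13, 17.3 and 39.0 CPM. Its pooled ranges overlapped, while those within each experiment did not, and it fell by 1.74 ± 0.22 (edgeR, adjusted p = 0.000229). Acsl4, which activates long-chain fatty acids, was at 172, 243 and 480 CPM against 98.5, 119 and 192 CPM and fell by 1.02 ± 0.13 (edgeR, adjusted p = 0.000229). Ptprm, a phosphatase of cell contacts, fell by 1.36 ± 0.18, Pcdh12, a protocadherin of endothelial junctions, by 1.27 ± 0.18 and Apold1, an endothelial protein, by 1.88 ± 0.28 (edgeR, adjusted p = 0.000332, 0.000633 and 0.00115). Inhbb, a subunit of activin B, fell by 1.53 ± 0.22 (edgeR, adjusted p = 0.000841) from a median of 33.4 to 9.51 CPM. Piezo2, a mechanically gated channel, fell by 1.71 ± 0.28 (edgeR, adjusted p = 0.00324), and F2r, the thrombin receptor PAR1, fell by 0.57 ± 0.10 (edgeR, adjusted p = 0.00327). Porcn, the acyltransferase that Wnt ligands need for secretion, was at 18.8, 28.9 and 36.4 CPM against 5.88, 13.4 and 16.7 CPM, without overlap. It fell by 1.10 ± 0.18 (edgeR, adjusted p = 0.00327). The other genes so named, Prrg3, Slc43a1, Ldb2, Wscd1, Ctla2a and Tmem255a, fell by 1.10 to 2.84. Rasa3, a brake on RAS and R-RAS, and Cd109, a surface protein that binds TGF-beta, were chosen after their values were seen. They fell by 0.95 ± 0.17 and 0.85 ± 0.16 (edgeR, adjusted p = 0.00572 and 0.0107).

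Genes of activated myeloid cells were among those that rose. Of 46 tested myeloid receptor and activation genes, 6 rose by edgeR (background 0.569%) and 12 were called higher by DESeq2. None was called lower by either or at an unadjusted p under 0.05, and 22 were higher in all 3 experiments (background 17.3%). The median was 0.40, or 0.48, 0.92 and 0.08 by experiment. In the anti-PD1 experiment the mean log2 CPM of the list was 3.38 to 4.44 in vehicle and 3.93 to 4.27 in low dose libraries. Ch25h, the enzyme that makes 25-hydroxycholesterol in activated macrophages, was at 1.72, 18.0 and 42.2 CPM in vehicle and at 41.4, 95.6 and 156 CPM in low dose libraries. The lowest treated tumour was just under the highest vehicle tumour, with no overlap inside any experiment. Ch25h rose by 2.15 ± 0.45 (edgeR, adjusted p = 0.0186), with changes of 1.43, 2.71 and 2.28. Tlr2, a receptor of bacterial lipopeptides, rose by 0.64 ± 0.14 (adjusted p = 0.0276), Fpr2, a formyl peptide receptor, by 1.14 ± 0.25 (adjusted p = 0.0278) and Clec5a, a DAP12-coupled lectin, by 1.0 ± 0.23 (adjusted p = 0.0314), all by edgeR. These 3 calls ended in 5, 5 and 10 of the 20 single-library omissions. The number of called genes in the list was 2 without vehicle 1 or low dose 1 of the dose experiment or without vehicle 1 or low dose 2 of the DC-101 experiment, 3 without low dose 2 of the dose experiment or vehicle 2 of the DC-101 experiment, and 11 without vehicle 3 of the anti-PD1 experiment. With the hepatocyte covariate it was 4.

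Of 21 monocyte and macrophage chemokines, 3 rose by edgeR (background 0.569%, median 0.58), and 10 were higher in all 3 experiments (background 17.3%). No chemokine was called lower by edgeR, with 2 lower at an unadjusted p under 0.05, while DESeq2 called 8 higher and 1 lower. The number called higher was 5 without vehicle 3 of the DC-101 experiment or without low dose 2 of the anti-PD1 experiment. Besides Ccl12 and Ccl7, which were separated in each experiment, Ccl2, the main monocyte attractant, rose by 1.56 ± 0.32 (edgeR, adjusted p = 0.015). It was at 8.26, 24.4 and 71.7 CPM against 39.4, 75.2 and 166 CPM and overlapped in the anti-PD1 experiment, where its change was 0.55, against 1.25 and 2.72 in the others. Among 31 macrophage identity genes, 2 rose by edgeR (background 0.569%) and 3 were called higher by DESeq2, with a median of 0.29, or 0.67, 0.01 and -0.10 by experiment. Cd14, the co-receptor for lipopolysaccharide, rose by 0.71 ± 0.16 (edgeR, adjusted p = 0.0314) and Fcgr1, the high affinity IgG receptor, by 0.73 ± 0.18 (edgeR, adjusted p = 0.0467). They lost their calls in 6 and 17 of the 20 omissions, and both with the hepatocyte covariate. The general macrophage markers did not pass. Adgre1 (F4/80) was at 89.1 to 172 CPM against 90.1 to 271 CPM, Cd68 at 91.7 to 222 CPM against 122 to 194 CPM, and the leukocyte marker Ptprc at 77.9 to 136 CPM against 94.0 to 178 CPM. Their log2 changes were 0.38, 0.09 and 0.34 (edgeR, adjusted p = 0.264, 0.771 and 0.175). Lcp1, the leukocyte actin bundler, was chosen after its values were seen and rose by 0.63 ± 0.13 (edgeR, adjusted p = 0.0211), lost without low dose 2 of the DC-101 experiment (adjusted p = 0.0556).

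Among 28 targets of TNF and NF-kB, 2 rose by edgeR (background 0.569%), 4 were called higher by DESeq2 and 10 were higher in all 3 experiments (background 17.3%). The median was 0.16, or 0.14, 0.46 and -0.07 by experiment. Nfkbie, the inhibitor IkB-epsilon that NF-kB itself induces, was at 33.9, 63.4 and 79.4 CPM against 76.9, 100 and 106 CPM. The groups were separated in each experiment, and it rose by 0.71 ± 0.14 (edgeR, adjusted p = 0.0122). Vcam1, an adhesion molecule for leukocytes that macrophages and stromal cells also make, was at 165, 231 and 410 CPM against 274, 402 and 448 CPM. It rose by 0.67 ± 0.13 (edgeR, adjusted p = 0.00876). Vcam1 was thus higher with the drug, in contrast to Esam, Cdh5, Pecam1 and Icam2 among adhesion genes. Among 23 ERK feedback genes, Dusp6, the phosphatase that ERK signalling induces against itself, rose by 0.64 ± 0.10 (edgeR, adjusted p = 0.00188). Its CPM were 86.0, 109 and 146 against 118, 168 and 221, with changes of 0.41, 0.62 and 0.90 and no overlap within any experiment. It was the only ERK feedback gene called by edgeR (background 0.569% higher), with 3 called higher by DESeq2 (background 3.07%). At an unadjusted p under 0.05, 5 of the 23 were higher (background 8.02%) and 1 was lower. The edgeR count was 3 without low dose 2 of the anti-PD1 experiment and 2 without low dose 3 of the dose experiment, low dose 1 or 3 of the DC-101 experiment or vehicle 3 of the anti-PD1 experiment. Il23a, a subunit of the cytokine IL-23, was chosen after its values were seen. It rose from a median of 0.324 to 1.03 CPM (1.73 ± 0.37, edgeR, adjusted p = 0.0225) and lost the call without vehicle 1 of the DC-101 experiment (adjusted p = 0.0525).

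**Figure D2:**
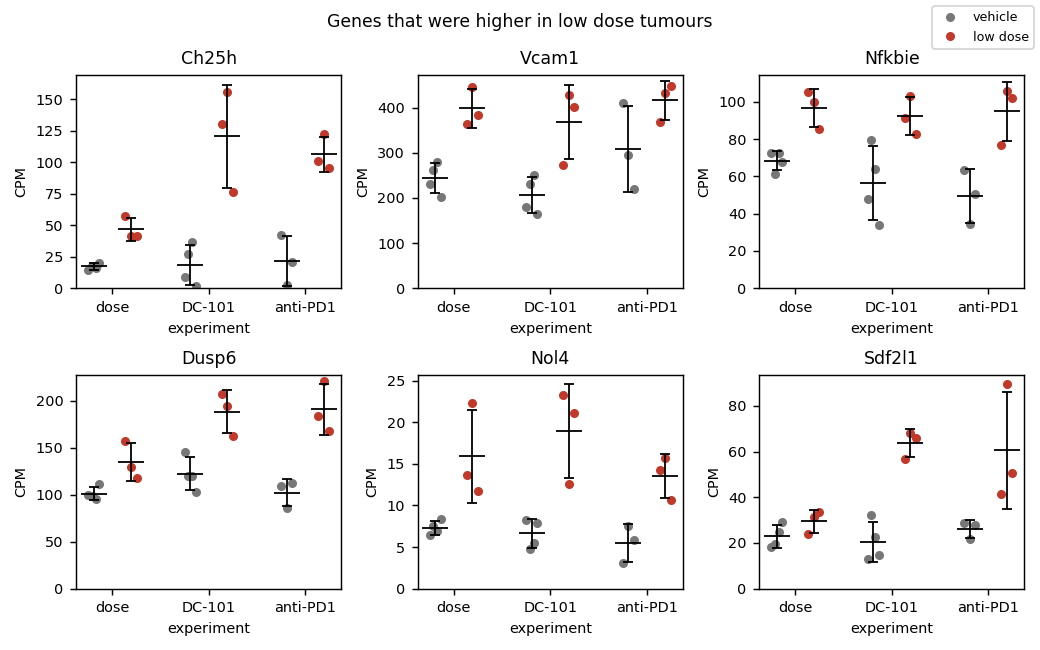
CPM of Ch25h, Vcam1, Nfkbie, Dusp6, Nol4 and Sdf2l1 in each of the 20 libraries, by experiment and treatment; points are libraries and bars give the mean ± SD. Nol4 was at 3.07 to 8.42 CPM in vehicle and 10.6 to 23.3 CPM in low dose libraries, while the rise of Sdf2l1 was smallest in the dose experiment (log2 changes of 0.37, 1.63 and 1.21).

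Most interferon-stimulated genes were higher, but 1 passed the adjusted threshold. Of 56 tested genes, 41 were higher at an unadjusted p under 0.05 (background 8.02%) and none lower, 38 were higher in all 3 experiments (background 17.3%), and the median log2 change was 0.57, or 0.57, 1.01 and 0.16 by experiment. By edgeR 1 was called, by DESeq2 12. The called gene, Oas1a, an antiviral synthetase with several close paralogs, was at 7.23, 14.5 and 20.2 CPM against 14.8, 23.7 and 30.9 CPM. Its pooled ranges overlapped, and it rose by 0.73 ± 0.17 (edgeR, adjusted p = 0.0339), a call lost in 11 of the 20 omissions and with the hepatocyte covariate. The count was 10 without vehicle 1 of the anti-PD1 experiment and 3 without low dose 2 of it. Isg15 and Ifit1, chosen after their values were seen, had log2 changes of 0.97 ± 0.27 and 1.07 ± 0.33 (edgeR, adjusted p = 0.0801 and 0.106). The interferon response element GAAANNGAAA was searched on both strands in the same 250 bases. It was in 18 of 44 tested list genes with a promoter (40.9%), against 936 of 27025 genes, tested or not (3.46%). All 18 had a log2 change above 0, with a median of 0.62. This was close to the whole list of 56 tested genes, whose median was 0.57 and lowest change -0.09. The Oas1a promoter is shown because it holds overlapping copies of the element 20 bases before the start (capitals, RefSeq, GRCm38.p6, chr5:120907526-120907585, minus strand).
Oas1a: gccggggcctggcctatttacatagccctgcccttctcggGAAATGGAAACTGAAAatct

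Antigen presentation and T cell lists had medians above 0 and few calls. All 25 class I presentation genes had log2 changes between 0.11 and 0.62, with a median of 0.31, or 0.30, 0.52 and 0.02 by experiment. None was called by edgeR, 8 were higher at an unadjusted p under 0.05 (background 8.02%) and DESeq2 called 1 higher (background 3.07%). The median of 14 class II genes was 0.53, or 1.05, -0.02 and 0.28 by experiment, with none called by edgeR or DESeq2 and 1 higher at an unadjusted p under 0.05. The median of 34 T cell genes was 0.65, with 22 of the 34 higher in all 3 experiments (background 17.3%). By edgeR 1 T cell gene was called, and it fell (background 0.951%), with 7 higher at an unadjusted p under 0.05 (background 8.02%). DESeq2 called 1 higher and 1 lower (background 3.07% and 3.09%). Tcf7, a transcription factor of naive and stem-like T cells that other tissues use as well, was at 19.8, 30.4 and 41.2 CPM against 9.86, 19.8 and 26.7 CPM. It fell by 0.72 ± 0.16 (edgeR, adjusted p = 0.0267), lost in 4 omissions and with the hepatocyte covariate (adjusted p = 0.0528). Cd3e, the T cell receptor chain, was at 0.38 to 5.24 CPM against 0.686 to 5.64 CPM, with a log2 change of 0.74 (edgeR, adjusted p = 0.475).

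B cell and plasma cell genes had the highest median of any immune list, 1.34, with 4 genes called higher and 1 lower of 24 by edgeR (background 0.569% and 0.951%), and 14 higher and 1 lower by DESeq2. Ighg1, an IgG heavy chain, was at 0.0457, 0.27 and 1.75 CPM in vehicle and at 0.567, 4.65 and 76.1 CPM in low dose libraries. It rose by 3.44 ± 0.60 (edgeR, adjusted p = 0.00448), with changes of 2.74, 2.81 and 4.76. The range among treated tumours was wide. Jchain, which joins IgA and IgM, rose by 2.19 ± 0.53 (edgeR, adjusted p = 0.0416) and Igkc, the kappa light chain, by 2.28 ± 0.55 (edgeR, adjusted p = 0.0437). These were lost in 9 and 15 of the 20 omissions, and counts of immunoglobulin genes are uncertain because their sequences are similar. The other gene called higher was Xbp1, at 136 to 320 CPM over the 20 libraries. Xbp1 is not particular to plasma cells and also counts in the unfolded protein list below. The list had between 1 and 7 genes called higher when a library was left out. It had 1 without vehicle 1 of the dose experiment, low dose 2 of the DC-101 experiment, or vehicle 2 or low dose 3 of the anti-PD1 experiment, and 7 without vehicle 3 of the DC-101 experiment. It had 2 without vehicle 3 or low dose 2 of the dose experiment, vehicle 1, 2 or 4 of the DC-101 experiment, or vehicle 1 of the anti-PD1 experiment. Sdc1, a plasma cell marker that epithelial and tumour cells also carry, fell. It was at 303, 394 and 459 CPM against 181, 240 and 330 CPM, with no overlap within an experiment, and fell by 0.67 ± 0.10 (edgeR, adjusted p = 0.00196).

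**Figure D3:**
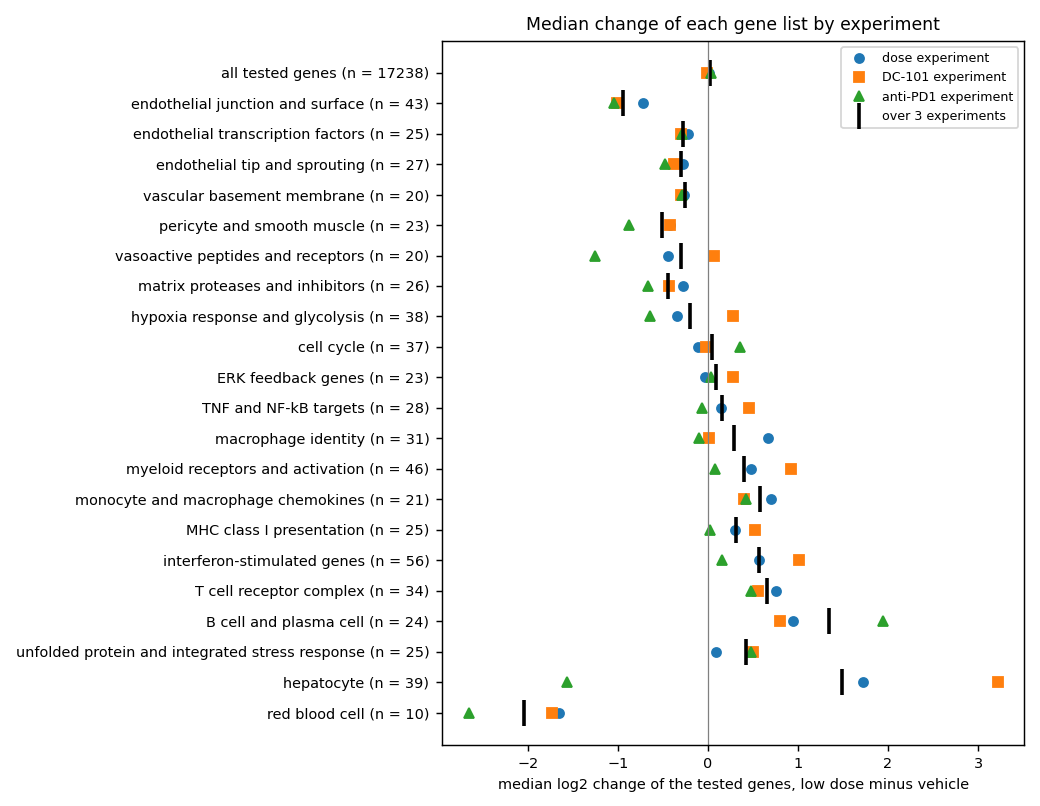
Median log2 change (low dose minus vehicle) of the tested genes of 22 lists, as a bar over 3 experiments and as a symbol for each experiment. Endothelial junction genes lie near -1 in each experiment (-0.72, -1.01 and -1.05), whereas hepatocyte genes are above 0 in 2 experiments (1.72 and 3.22) and below it in the anti-PD1 experiment (-1.57).

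**Figure D4:**
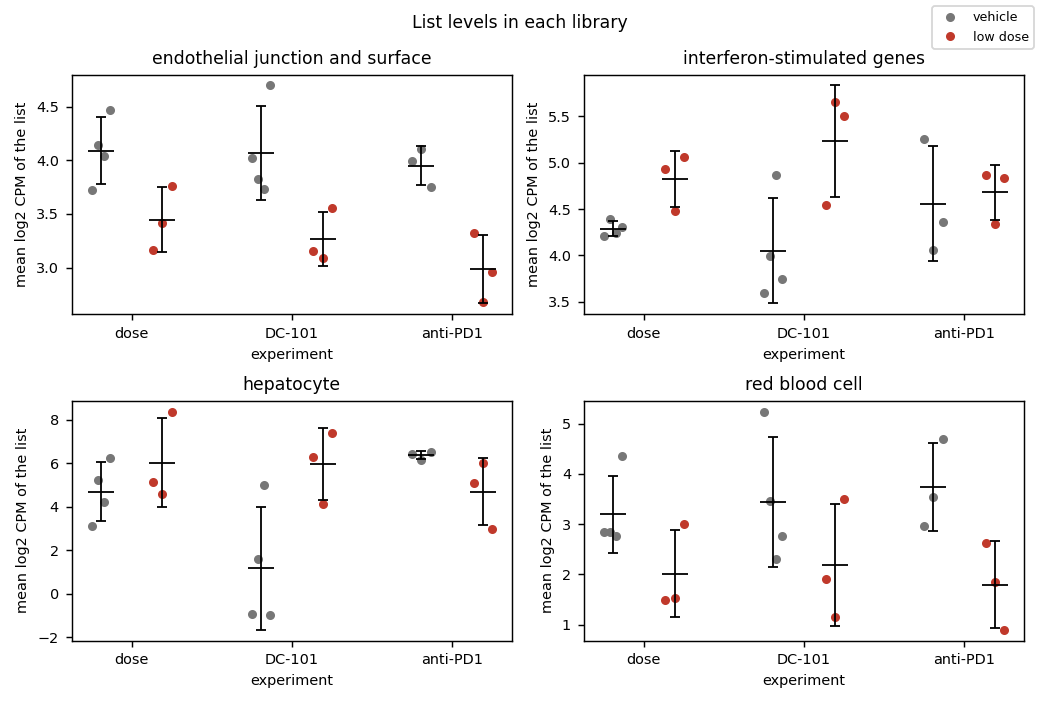
Mean log2 CPM of the tested genes of the endothelial junction, interferon-stimulated, hepatocyte and red blood cell lists in each of the 20 libraries, by experiment and treatment. Endothelial junction levels were 3.72 to 4.47 against 3.16 to 3.76 in the dose experiment, where they just overlapped, 3.73 to 4.70 against 3.09 to 3.56 in p103 and 3.75 to 4.11 against 2.68 to 3.32 in p101.

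Some chaperones of the endoplasmic reticulum rose. Of 25 genes of the unfolded protein and integrated stress responses, 2 rose by edgeR (background 0.569%), 13 were higher at an unadjusted p under 0.05 (background 8.02%), 16 were higher in all 3 experiments (background 17.3%) and DESeq2 called 8 higher. None was called lower by either tool or lower at an unadjusted p under 0.05. The edgeR count was 1 without vehicle 1 of the dose experiment, vehicle 1 or 4 or low dose 1 or 2 of the DC-101 experiment or low dose 3 of the anti-PD1 experiment. The median was 0.42, or 0.09, 0.50 and 0.48 by experiment. Sdf2l1, a co-chaperone of BiP, was at 13, 22.4 and 32 CPM against 23.7, 50.5 and 89.7 CPM. It overlapped in the dose experiment only and rose by 1.08 ± 0.21 (edgeR, adjusted p = 0.0109). Xbp1, the transcription factor of this response, rose by 0.46 ± 0.10 (edgeR, adjusted p = 0.0311), lost in 7 omissions. It is the same call that counts in the B cell and plasma cell list. Outside the list, and chosen after their values were seen, Creld2, Manf and Stip1 rose by 0.69 ± 0.15, 0.67 ± 0.16 and 0.58 ± 0.14 (edgeR, adjusted p = 0.0267, 0.0364 and 0.0433). Creld2 and Manf are secreted chaperones of the endoplasmic reticulum and Stip1 a cytosolic HSP90 co-chaperone. Creld2 lost the call without vehicle 1 or low dose 2 of the DC-101 experiment (adjusted p = 0.0561 and 0.0575), Manf in 12 and Stip1 in 14 omissions. With the hepatocyte covariate the adjusted p-values of Creld2, Manf, Stip1 and Xbp1 were above 0.05. The stress response element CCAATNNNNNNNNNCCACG was in 4 of the 25 tested list genes (16.0%), against 35 of 27025 genes with a promoter, tested or not (0.13%). The Creld2 promoter, on chromosome 15, also holds it and is shown with the element in capitals, as its reverse complement (RefSeq, GRCm38.p6, chr15:88819480-88819578, plus strand).
Creld2: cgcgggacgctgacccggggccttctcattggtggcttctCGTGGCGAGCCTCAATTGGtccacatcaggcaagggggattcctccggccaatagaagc

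Among metabolic genes the calls were few. Of 39 hepatocyte genes, edgeR called 1 higher (background 0.569%) and DESeq2 4 higher (background 3.07%). The edgeR call was Ass1, which makes argininosuccinate in the urea cycle and in arginine recycling of activated macrophages. It was at 45.4, 95.7 and 265 CPM against 123, 169 and 464 CPM, rose by 0.93 ± 0.16 (edgeR, adjusted p = 0.00327) and was separated and higher in every experiment (0.73, 0.97 and 1.10). Its direction in the anti-PD1 experiment was the opposite of the hepatocyte median there. Dhcr7, the last enzyme of cholesterol synthesis, rose by 0.57 ± 0.13 (edgeR, adjusted p = 0.03), lost in 6 omissions, with the hepatocyte covariate (adjusted p = 0.0779), with total count scaling (0.0514), with no filter (0.0705) and with all 32 libraries (0.171). Ltbp1, which anchors latent TGF-beta in matrix, was the only edgeR call among 27 BMP and TGF-beta targets (background 0.569% higher). It rose by 0.67 ± 0.14 (edgeR, adjusted p = 0.015). The call was lost with the replicate number as a block (adjusted p = 0.0572) and with all 32 libraries (0.0589). DESeq2 called 1 of the 27 higher and 3 lower (background 3.07% and 3.09%).

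Rises outside the lists were of mixed function. Nol4 was at 3.07, 6.89 and 8.42 CPM against 10.6, 14.3 and 23.3 CPM, with every treated tumour above every vehicle tumour. It rose by 1.32 ± 0.18 (edgeR, adjusted p = 0.000504), with changes of 1.12, 1.52 and 1.31. Tmem171 was separated in the same way, at 0.806, 2.02 and 2.86 CPM against 4.09, 4.75 and 7.51 CPM, and rose by 1.38 ± 0.20 (edgeR, adjusted p = 0.00115). Scin, an actin-severing protein, rose by 1.73 ± 0.30 (edgeR, adjusted p = 0.00464). Transporters were among these genes. Slc39a10, a zinc importer, rose by 0.85 ± 0.15 and Slc5a3, a myo-inositol transporter, by 1.32 ± 0.24 (edgeR, adjusted p = 0.00385 and 0.00532). St3gal6, a sialyltransferase of selectin ligands, rose by 1.08 ± 0.17, Olfm1, a secreted glycoprotein, by 0.88 ± 0.15 and Mybl1, a MYB family factor, by 0.96 ± 0.16 (edgeR, adjusted p = 0.00243, 0.00327 and 0.00327). The other 7 genes named by p-value, Gm14137, Abhd17c, Dennd2c, Tm6sf1, Pnkd, Cfap74 and Txndc11, rose by 0.41 to 1.0.

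Of the 44 lists, 20 held no gene called by edgeR and 8 none called by DESeq2. The median of 37 cell cycle genes was 0.04, with none called by edgeR or DESeq2 and 1 higher at an unadjusted p under 0.05. Mki67 was at 80.1 to 619 CPM in vehicle and 80.9 to 437 CPM in low dose libraries. Both lowest values were from the anti-PD1 experiment, in vehicle 2 and low dose 2, which stood apart in other respects. Mitochondrial genes took 0.26% and 0.31% of their counts, against 0.92% to 2.34% in the rest of the 20 libraries. Their Col1a1 levels, 449 and 355 CPM, were the lowest of the vehicle and low dose libraries. The median of 32 oxidative phosphorylation genes was 0.13, with none called by edgeR, 1 by DESeq2 and 1 at an unadjusted p under 0.05. Of 38 hypoxia and glycolysis genes (median -0.20), Stc1 fell by edgeR (background 0.951%), and DESeq2 called 2 lower (background 3.09%). Without vehicle 1 of the anti-PD1 experiment edgeR called 2 as well. For several lists without an edgeR call the median differed in sign between experiments. Medians were 1.01, 2.66 and -1.32 for 35 complement and coagulation genes, 0.75, 3.06 and -1.58 for 23 acute phase genes and -0.13, 0.56 and -2.01 for 18 genes of liver sinusoidal endothelium. GBP and immunity-related GTPases, which interferon gamma induces, had medians of 0.68, 0.72 and -1.05. With the hepatocyte covariate, 3 sinusoidal endothelial, 2 acute phase and 1 complement and coagulation genes were called lower by edgeR. In that fit 135 of all 17238 tested genes were called lower.

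Within single experiments fewer genes could be called. By edgeR there were none in the dose experiment (944, or 5.48%, at an unadjusted p under 0.05, and 46 by DESeq2), 36 in the DC-101 experiment (0.209%), of which 0 were left with the hepatocyte covariate, and 105 for the tumours of p101 (0.609%). These counts ranged from 2 to 406 and from 0 to 280 when a library was left out. No gene's change differed between the experiments at an adjusted p of 0.05 by edgeR, with 1695 (9.83%) at an unadjusted p under 0.05 and 0.65% by DESeq2.

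Directions were also read in an experiment that had been left out of the call. Of genes called lower from the other 2 experiments, 33 of 36 were lower in the dose experiment, 21 of 21 in p103 and 219 of 249 in p101. Of the 32, 14 and 145 genes called higher in these ways, 65.6%, 78.6% and 77.2% were higher there. Over all tested genes the same direction was shared by 62.9%, 58.7% and 55.8%.

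The same dose could also be read on top of anti-PD1, in 3 combination tumours against 3 anti-PD1 tumours that the comparison with vehicle did not use. No gene passed there by edgeR, with 1443 (8.68%) at an unadjusted p under 0.05 and 210 by DESeq2. Of the 98 genes that rose against vehicle, 89 were also higher in the combination, against 49.8% of all genes, and 28 were so at an unadjusted p under 0.05, against 6.53%. Of the 160 tested genes that fell, 126 were lower, against 50.2%, and 29 were so at an unadjusted p under 0.05, against 2.09%. The median log2 changes were 0.38 and -0.42.

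Endothelial genes were close to 0 on balance in the combination. Of the 20 junction and surface genes that fell, 13 were lower in the combination with a median of -0.17, and the median of the whole list was 0.05. Igfbp3 and Cldn5 were lower by 1.07 and 1.31 (unadjusted p = 0.0052 and 0.0136 by edgeR), Esam and Dll4 had changes of -0.28 and -0.38, and Flt1, Cdh5 and Pecam1 of -0.19, -0.11 and 0.04. Among the rises, Nol4, St3gal6, Olfm1, Mybl1 and Tmem171 were higher by 0.94 to 1.20 with unadjusted p-values between 0.00717 and 0.016. Sdc1 had a change of -0.69 (unadjusted p = 0.0125 by edgeR), beside -0.67 against vehicle. The combination libraries also differed from the anti-PD1 libraries in other respects. All 39 hepatocyte genes were higher in the combination, with a median of 2.71, and mitochondrial genes took 1.36% to 2.34% of their counts, against 0.370% to 0.680%. With the hepatocyte level as a covariate no gene passed in this contrast by edgeR, and 982 had an unadjusted p under 0.05. The part of either in the changes of the genes given here was not tested.

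**Figure D5:**
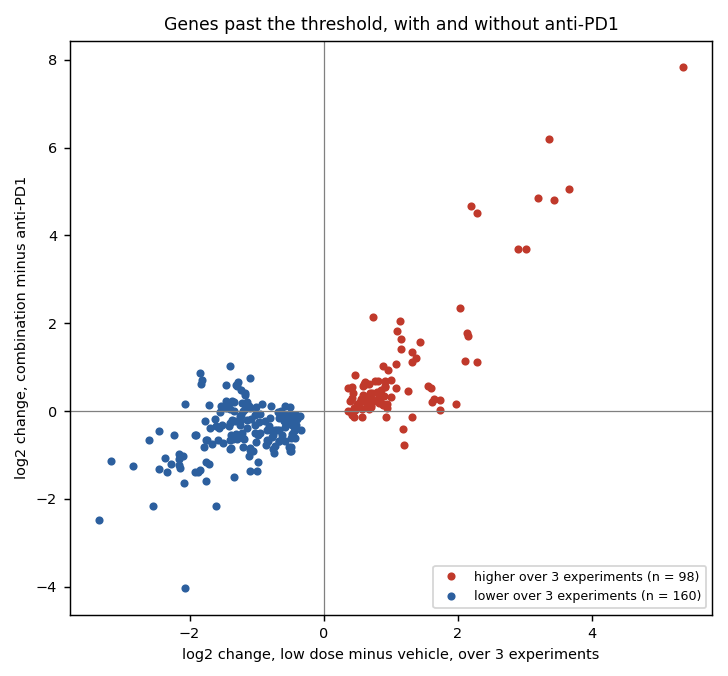
Log2 change of low dose against vehicle over 3 experiments (horizontal) and of the combination against anti-PD1 in other libraries (vertical) for the called genes tested in both; each point is a gene. Of 98 genes higher on the horizontal axis 89 are above 0 on the vertical axis, and of 160 lower ones 126 are below it.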

How the data were processed

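RNA came from frozen tissue per the labels (the study's methods speak of fresh tumours), and libraries were made with a stranded mRNA kit. Per the labels and the study's methods, the authors trimmed reads with cutadapt 2.4, aligned them to GRCm38 with STAR 2.7.2a and deposited raw counts per gene and library. Which strand column of STAR was taken is not given in the sources used here, so overlapping antisense genes are uncertain. Of 54446 genes, 54409 (99.93%) were matched to Gencode coordinates. Groups, experiments and replicate numbers came from the labels, and 12 libraries of other treatments were used only for the combination contrast or an alternative.

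Genes were kept with filterByExpr over the 6 groups (minimum count 10, minimum total count 15), scaled by TMM and tested with edgeR 4.0.16 in R 4.3.3 (robust quasi-likelihood, 2-sided, experiment as a term, Benjamini-Hochberg over 17238 genes, threshold 0.05). Changes within experiments came from a fit of the 6 group means on the same 20 libraries, their difference from the interaction with 2 degrees of freedom, and the combination contrast from the 4 groups of p101. CPM used TMM-scaled totals, and log2 CPM a prior count of 2. Alternatives used DESeq2 1.42.0 and limma 3.58.1. On simulated data for the comparison over 3 experiments, 92% of 200 genes with a log2 change of 2 were recovered among 17238, with 9 false calls. The 200 genes were drawn from those with a mean log2 CPM of 0 or more. The median absolute change of the real calls was 1.1, so this rate does not describe recovery of smaller changes. Libraries of a group differed by 12.9 to 384.5 in chi-square per degree of freedom over 24 pairs, so none was taken as a duplicate.

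The members and the 44 gene lists were chosen with earlier results of these data known. Of 1150 list entries, 1098 were tested, 46 had too few counts and 6 had no match. The named genes were up to 5 per list and direction by p-value among called genes of the same direction in each experiment (the smallest p-value where a list had none), 15 protein coding genes per direction outside the lists whose mean log2 CPM was 0 or more, and all target kinases and cell type markers. Another 13 genes were chosen after their values were seen.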

Additional observations from a re-analysis of the deposited data

Results flagged for a closer look

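In groups of 4 vehicle libraries, 11 values of named genes stood apart from the other 3 (Dixon's ratio above its 95% critical value) among 296 groups tested, and chance gives about 1 in 20. In the dose experiment, vehicle 4 was low for Ccl12 at 3.91 log2 CPM (others 4.56 to 4.69) and was the only one with counts of Mup16, at -0.90 (others -3.51). Vehicle 1 of that experiment was low for Ptprm at 3.32 (others 3.92 to 4.03) and high for Porcn at 4.95 (others 4.24 to 4.33). In the DC-101 experiment, vehicle 4 was low for Ccl7 at 1.55 (others 3.14 to 3.28) and for Ccl2 at 3.06 (others 4.62 to 4.84), and high for Wscd1 at 2.84 (others 1.84 to 1.95). Vehicle 3 was high for Hamp at 2.22 (others -2.94 to -2.22) and for Mup16 at -2.91 (others -3.51). Vehicle 1 was low for Pdgfra at 8.44 (others 9.01 to 9.11) and for Gm14137 at 4.03 (others 4.31 to 4.36).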

How the results depend on the processing

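Of the 135 genes named by rule, 82 were called, 66 of them without each library in turn and 16 under every alternative in which they were tested. The 91 called genes named, by rule or otherwise, kept their direction wherever they were tested. Of the 91, 11 (3 of them among the 16, Sox17, Stc1 and Tmem255a) were not tested with at least 10 counts in every library, and Mup16 not with the filter on 2 treatments. The count of 262 called genes was 265 with DESeq2 size factors, 252 with total count scaling, 310 with limma voom, 238 with at least 10 counts in every library, 212 with the hepatocyte covariate, 278 with all 32 libraries and, as an alternative added after seeing the data, 276 with the filter on 2 treatments. It moved further under other settings, given as all, higher, lower and same direction in each experiment. These were 1061, 529, 532 and 1017 with the DESeq2 test, 720, 323, 397 and 709 with the mitochondrial share as a covariate, and 153, 56, 97 and 153 with no filter. Without the dose experiment they were 68, 32, 36 and 68, without the DC-101 experiment 35, 14, 21 and 35, and without the anti-PD1 experiment 394, 145, 249 and 394. Fewer samples entered those 3 fits, and the causes of the other moves were not tested.

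Leaving out 1 library gave 155 to 333 called genes, 43 to 148 higher, 106 to 187 lower and 155 to 330 of the same direction in each experiment. The count was more than 1.5 times lower without vehicle 1 (155), vehicle 3 (171), low dose 1 (170) or low dose 2 (169) of the dose experiment and without vehicle 1 (161), vehicle 4 (162), low dose 1 (166) or low dose 2 (157) of the DC-101 experiment.

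Libraries of the same number were not taken as pairs: residuals around the group mean had an r above 0.1 in 4 of 9 cases (-0.16 to 0.61). The highest r was that of vehicle 2 and low dose 2 of the anti-PD1 experiment, where the pairs 1 and 3 had 0.08 and 0.35. With the replicate number as a block there were 175 called genes, 56 higher and 119 lower, and 2, 2 and 23 within the dose, DC-101 and PD1 experiments. Of the 91 named called genes, 22 were not called with the block, among them Ch25h (adjusted p = 0.0651), Tlr2 (0.117), Fpr2 (0.0976), Clec5a (0.0779), Ccl2 (0.0854), Cd14 (0.0557), Fcgr1 (0.122) and Ednrb (0.0606), all by edgeR. The others were Cfap74, Chordc1, Col4a1, Creld2, Gpr84, Igkc, Il23a, Jchain, Lmo2, Ltbp1, Manf, Oas1a, Stip1 and Txndc11.

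Within the dose experiment the count of 0 became 1 with DESeq2 size factors, total count scaling, limma voom, no filter or the stricter filter, 4 with the mitochondrial covariate, 46 with DESeq2 and 0 to 2 without 1 library. Within the DC-101 experiment the count of 36 became 0 with the hepatocyte covariate, 18 with all 32 libraries, 20 with no filter, 202 with the mitochondrial covariate, 521 with DESeq2 and 2 to 406 without 1 library. Within the PD1 experiment the count of 105 became 9 with no filter, 20 with all 32 libraries, 50 with total count scaling, 907 with DESeq2, 2633 with the mitochondrial covariate and 0 to 280 without 1 library. Genes whose change differed between experiments made up 0.65% of those tested with DESeq2, 0.365% with the mitochondrial covariate and 0 to 0.0113% without 1 library, where they were 0 in the reported model. The combination contrast had 210 with DESeq2 and 0 under its other alternatives.

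Only genes that were not called changed sign. With the hepatocyte covariate the log2 changes were 0.05 for Abl1, -0.74 for Alb, -0.01 for Ttr, -0.52 for Apoa1, -0.60 for Krt8 and -0.62 for Krt18. With limma voom they were -0.10 for Krt8 and -0.01 for Mki67, with the mitochondrial covariate -0.01 for Ddr2, -0.05 for Krt8 and -0.15 for Mki67, and with the block -0.15 for Krt8 and -0.09 for Krt18. Without the DC-101 experiment they were 0.26 for Ret, -0.11 for Epha2, 0.12 for Abl1, -0.02 for Alb, -0.57 for Krt8 and -0.56 for Krt18. Without the anti-PD1 experiment they were 0.69 for Fgfr2, -0.18 for Ddr2, -0.11 for Mapk11, 0.50 for Afp, 0.02 for S100a8 and -0.22 for Mki67, and without the dose experiment 0.06 for Fgfr2, 0.32 for Afp, -0.06 for Cd68 and 0.16 for S100a8. Without 1 library the ranges were -0.56 to 0.20 for Fgfr2, -0.45 to 0.11 for Afp, -0.19 to 0.44 for Krt8, -0.06 to 0.66 for Krt18, -0.15 to 0.04 for Abl1, -0.05 to 0.08 for Mapk11, -0.58 to 0.01 for Epcam, -0.04 to 0.10 for Ddr2, -0.11 to 0.13 for Mki67 and -0.27 to 0.09 for Col1a1.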

Other observations

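Chaperone genes were compared across the experiments. In the order dose experiment, DC-101 experiment, anti-PD1 experiment, the log2 changes were 0.08, 1.24 and 0.72 for Creld2, 0.14, 1.04 and 0.82 for Manf, 0.05, 0.93 and 0.75 for Stip1, -0.16, 0.95 and 0.72 for Hspa5, which encodes BiP, and 0.18, 1.02 and 0.67 for Herpud1, a component of ER-associated degradation. None of these differences between experiments passed the adjusted threshold by edgeR. Hspa5 and Herpud1 had adjusted p-values of 0.102 and 0.0518 over 3 experiments. These 5 genes were chosen after their values were seen.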
